A study of Mus musculus with 18 samples.

Results

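The genes described here are the 10 middle Hox genes of paralog groups 3 to 7 that lie outside the HoxB cluster: Hoxa3, Hoxa4, Hoxa5, Hoxa6 and Hoxa7 of HoxA, Hoxc4, Hoxc5 and Hoxc6 of HoxC, and Hoxd3 and Hoxd4 of HoxD. They were found by their symbols among the 55138 genes of the deposited expression table, where all 10 symbols matched, and they were followed through 18 RNA sequencing libraries of headless mouse embryos. In the genome build mm10 the HoxA members lie on the minus strand of chromosome 6, from Hoxa3 at chr6:52169062-52213115 to Hoxa7 at chr6:52214498-52221854. The HoxC members lie on the plus strand of chromosome 15, with Hoxc6 at chr15:103009573-103011881, Hoxc5 at chr15:103013815-103017429 and Hoxc4 at chr15:103018934-103036852. The HoxD members lie on the plus strand of chromosome 2, with Hoxd3 at chr2:74711927-74748271 and Hoxd4, which is inside an intron of Hoxd3, at chr2:74721978-74729160.

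Hox genes encode homeodomain transcription factors that give tissues their position along the head-to-tail axis of the embryo. Mouse has clusters called HoxA, HoxB, HoxC and HoxD, and within each cluster the genes are activated in the order in which they lie, so that middle genes come on after the anterior genes and before the posterior ones. Middle Hox genes mark the hindbrain border, the neck, the forelimb level and the front of the trunk, in spinal cord as well as in the somites. Their proteins bind DNA with Pbx and Meis partners, while Cdx proteins and retinoic acid act upstream of them.

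The study compared embryos with changes in HoxB, a cluster that holds none of the 10 genes. There were 6 groups of 3 libraries. At E10.5, where E gives the days of embryonic development, they were Del(i9-13):Hoxb13hd homozygotes, HoxB Del(i9-13) homozygotes, Hoxb13hd homozygotes and wild-type embryos. At E9.5 they were HoxB Del(i9-13) homozygotes and wild-type embryos. Del(i9-13) is a deletion between Hoxb9 and Hoxb13, which the series title ties to the insulation of Hoxb13. The labels give Hoxb13hd as a homozygous allele and do not spell out "hd". They do not say whether a library came from 1 embryo or a pool, so that p-values here measure the spread between libraries. The E10.5 libraries were made from ribosome-depleted RNA and the E9.5 libraries from poly(A)-enriched RNA. Stage and library type therefore cannot be told apart.

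Counts over genes summed to between 19333138 and 25722951 per library at E10.5 and to between 29829820 and 35934843 at E9.5. Each member had between 98 and 2733 reads in every library, and all 10 passed the filter on low counts. Hoxb13 and the gene Gm53, which lies between Hoxb9 and Hoxb13, checked the labels of the deletion. Hoxb13 had 228 to 307 reads in Del(i9-13):Hoxb13hd, 130 to 288 in Del(i9-13), 0 to 2 in Hoxb13hd and 1 to 25 in wild type at E10.5, and 1299 to 1421 in Del(i9-13) against 1 to 4 in wild type at E9.5. Gm53 had 0 to 3 reads in the libraries that carry Del(i9-13) and 371 to 1076 in the others. The 25 reads of Hoxb13 were in E10.5 wild type replicate 1. Whether a library carries the Hoxb13hd allele was not checked by these reads. At E10.5 the library Del(i9-13) replicate 2 stood apart. It had 11 reads of Hoxc10 against 299 to 510 in the other E10.5 libraries, and 7 reads of Hoxa13 against 87 to 132. Its Hox genes of groups 10 to 13 summed to 71.3 CPM (reads of a gene scaled to a fixed library total), against 111 to 167 CPM. In Del(i9-13) replicate 1 the 7 liver and visceral endoderm markers summed to 1455 CPM, against 25.4 to 504 CPM in the other E10.5 libraries. In E10.5 wild type replicate 3 the 6 heart markers summed to 864 CPM, against 31.5 to 273 CPM in the other E10.5 libraries. At E9.5 Del(i9-13) replicate 3 had a liver and visceral endoderm sum of 956 CPM, against 22.1 to 232 CPM in the other E9.5 libraries. For several results below, though not for all, fits without 1 of these libraries are also given.

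Levels of different genes were compared as FPKM, a fragment count scaled by library size and by transcript length. In wild-type embryos at E10.5 Hoxd4, which patterns the hindbrain and the neck vertebrae, was highest with 15.4 ± 1.64 FPKM (SD, n = 3). Hoxa7, a trunk gene, followed with 11.2 ± 1.34 FPKM. Hoxc4 averaged 9.32 ± 0.794 FPKM, Hoxa5 9.20 ± 0.511, Hoxc6 8.85 ± 0.438, Hoxd3 8.54 ± 1.85 and Hoxc5 8.52 ± 0.739 FPKM. These 5 genes formed a middle band in which neighbours overlapped in their libraries. Below the band came Hoxa4 with 4.52 ± 0.967 FPKM, Hoxa6 with 2.89 ± 0.623 FPKM and Hoxa3 with 2.16 ± 0.362 FPKM. The highest mean was 7.11 times the lowest, and in 6 of the 9 steps of the order the libraries of neighbouring genes overlapped.

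**Figure D1:**
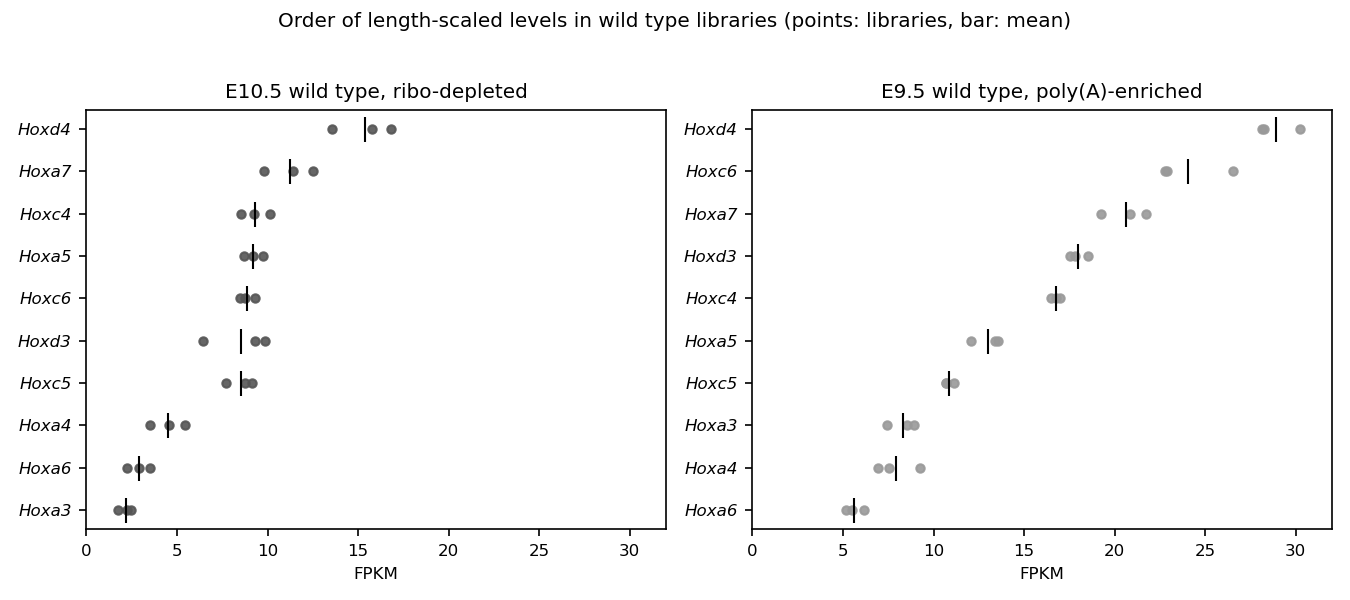
Length-scaled level (FPKM, x axis) of each of the 10 genes in the 3 wild-type libraries of E10.5 (left) and E9.5 (right), with points for libraries and a bar for the mean. Hoxd4 is highest at both stages, and Hoxc6 is second at E9.5 but in the middle band at E10.5.

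At E9.5 wild-type embryos had Hoxd4 highest as well, with 28.9 ± 1.181 FPKM. Hoxc6, which marks the forelimb level and the front of the thorax, was second with 24.1 ± 2.11 FPKM. The others ran from 20.6 ± 1.26 FPKM for Hoxa7 through 18.0 ± 0.501 for Hoxd3, 16.8 ± 0.251 for Hoxc4, 13.0 ± 0.833 for Hoxa5, 10.8 ± 0.240 for Hoxc5, 8.29 ± 0.756 for Hoxa3 and 7.91 ± 1.21 for Hoxa4 to 5.61 ± 0.520 FPKM for Hoxa6. Hoxa3 and Hoxa4 were the single pair of neighbours with overlapping libraries. All 10 genes had a lower mean FPKM at E10.5 than at E9.5 in wild type, as did 68.4% of the 11436 genes with at least 1 FPKM at both stages. The ratio of E10.5 to E9.5 had a median of 0.539 over the 10 genes and of 0.863 over those 11436 genes. It was lowest for Hoxa3, at 0.261, and highest for Hoxc5, at 0.786. No test was made of these ratios, because library type changed with stage.

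The order of mean FPKM differed between genotypes at E10.5, and no test of the order was made. Hoxa7 was the highest of the 10 in Del(i9-13):Hoxb13hd, at 14.99 FPKM, and in Del(i9-13), at 17.1 FPKM. Hoxd4 was highest in Hoxb13hd, at 15.2 FPKM, and in wild type. The libraries of the highest gene overlapped those of the next in Hoxb13hd (Hoxd4, Hoxa7) and in Del(i9-13):Hoxb13hd (Hoxa7, Hoxc6). In Del(i9-13):Hoxb13hd Hoxd4 came after Hoxa7 and Hoxc6, with 11.6 FPKM against 13.5 FPKM for Hoxc6, although the libraries of Hoxc6 and Hoxd4 overlapped. The summed level of the 10 genes was 236 to 257 CPM in Del(i9-13):Hoxb13hd, 249 to 281 CPM in Del(i9-13), 260 to 271 CPM in Hoxb13hd and 242 to 259 CPM in wild type, and at E9.5 it was 368 to 398 CPM in Del(i9-13) and 376 to 394 CPM in wild type.

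**Figure D2:**
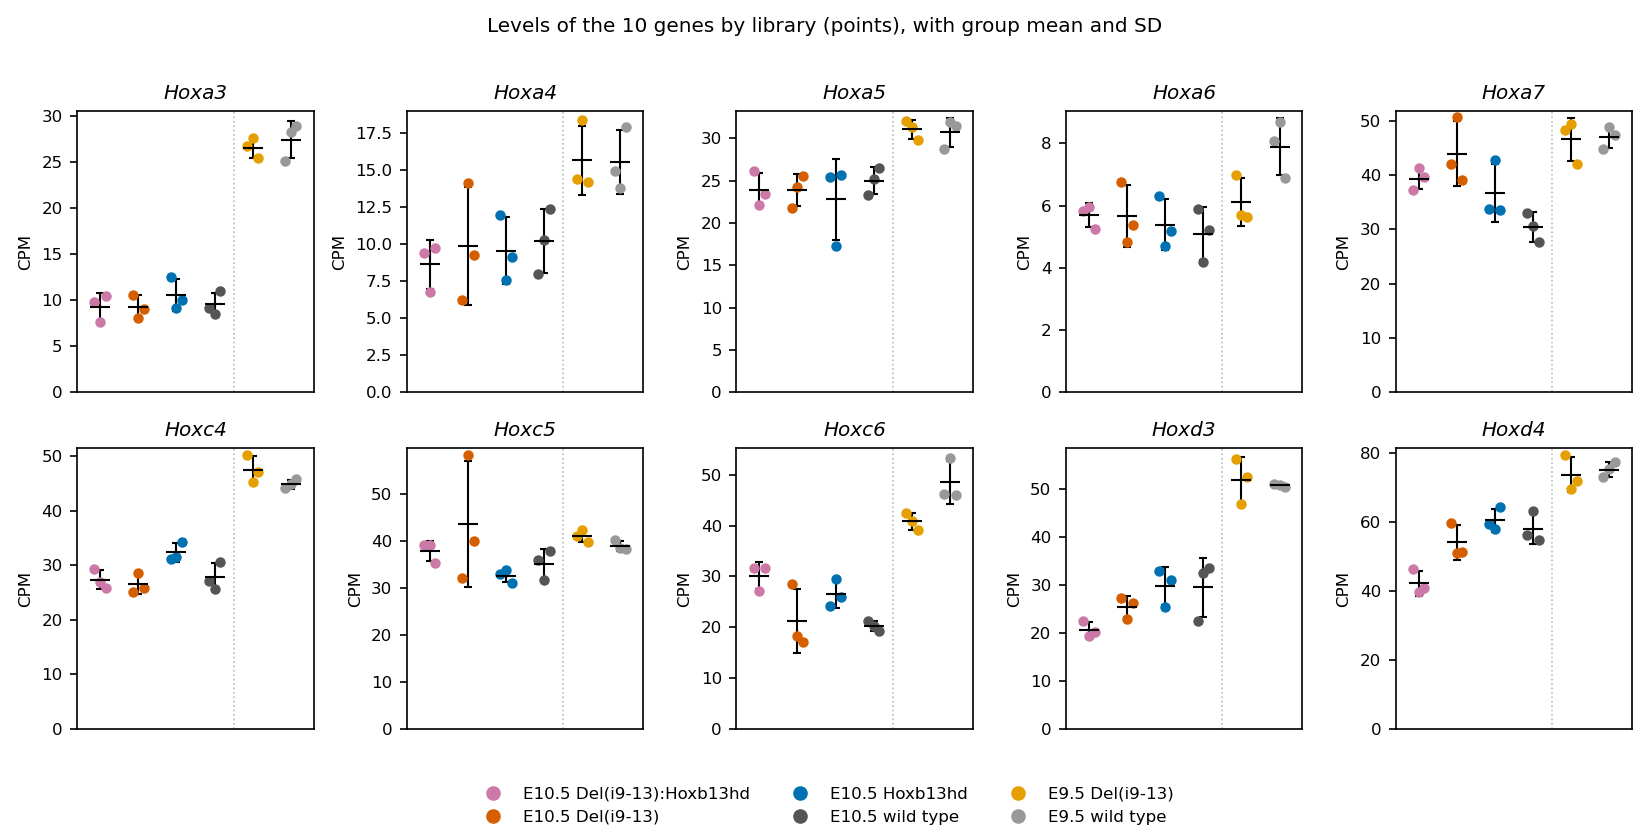
Level of each gene (CPM, y axis) in each of the 18 libraries, with the group mean and SD. From left to right in each panel stand Del(i9-13):Hoxb13hd, Del(i9-13), Hoxb13hd and wild type at E10.5, then Del(i9-13) and wild type at E9.5 after the dotted line. The Hoxd4 points of Del(i9-13):Hoxb13hd, 39.5 to 46.2 CPM, lie below those of every other group.

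Differences between groups were tested with edgeR's quasi-likelihood test, fitted to all genes of a stage, and a change was called at a Benjamini-Hochberg adjusted p under 0.05 over all genes tested. Of the 10 genes, 1 passed in Del(i9-13):Hoxb13hd against wild type and 1 in Del(i9-13):Hoxb13hd against Hoxb13hd. It was Hoxd4 both times, lower in Del(i9-13):Hoxb13hd. Over all genes, 0.401% of 17202 passed in the first of these comparisons and 0.959% in the second. The unadjusted p was under 0.05 for 4 and 3 of the 10 genes, against 12.5% and 15.2% of all genes. DESeq2 called 2 in each comparison, and limma on log2 FPKM called 0 and 1. Both comparisons use the same Del(i9-13):Hoxb13hd libraries. In bulk libraries such as these, fewer cells that express a gene and less RNA per cell cannot be told apart.

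None of the 10 genes passed in the other comparisons. In Del(i9-13) against wild type edgeR called 0 of 10 at E10.5, where 0.488% of all genes passed, with an unadjusted p under 0.05 for 1 of the 10 and for 9.13% of all genes, and 1 call each by DESeq2 and limma. In Hoxb13hd against wild type it called 0, where 3.01% of all genes passed, with 3 of the 10 and 20.4% of all genes under 0.05 unadjusted and 0 calls by DESeq2 and by limma. In Del(i9-13):Hoxb13hd against Del(i9-13) it called 0, where 0.907% of all genes passed, with 2 of the 10 and 16.1% of all genes under 0.05 unadjusted, 1 call by DESeq2 and 0 by limma. At E9.5 Del(i9-13) against wild type gave 0 calls, where 0.362% of 16041 genes passed, with 2 of the 10 and 11.7% of all genes under 0.05 unadjusted and 0 calls by DESeq2 and by limma. The median log2 change of the 10 genes lay between -0.08 and 0.07 in these 6 comparisons. Over all genes tested it lay between -0.02 and 0.003.

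**Figure D3:**
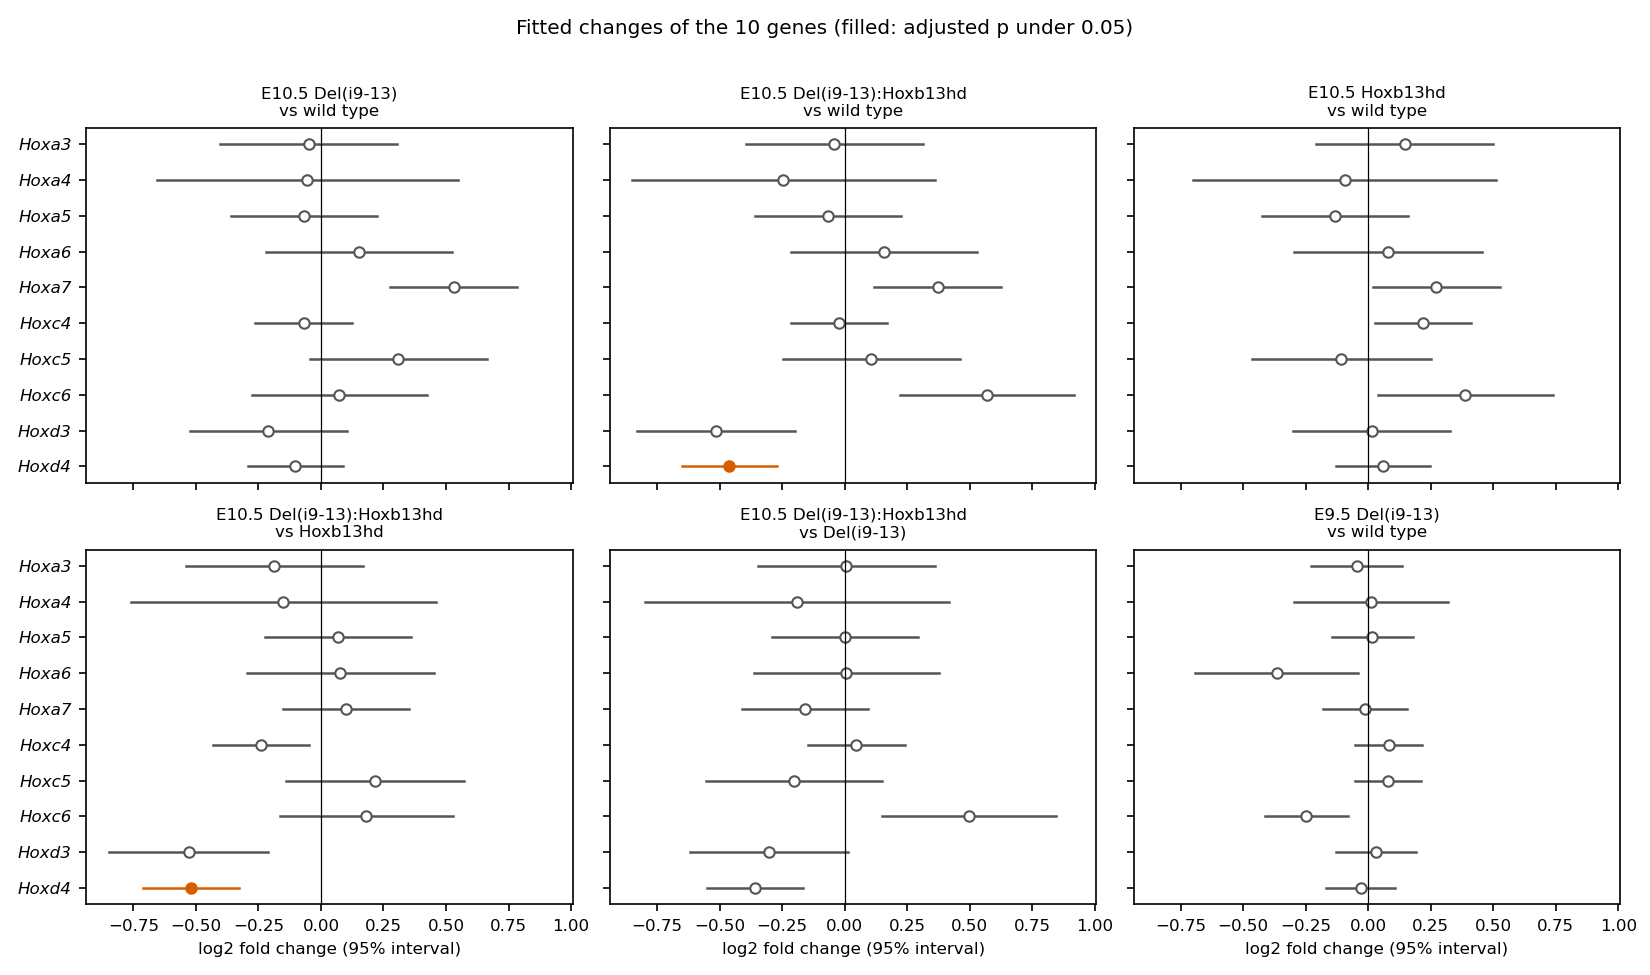
Fitted log2 fold change (x axis, point) of each gene with its 95% confidence interval (line) in 6 comparisons, with filled points for an adjusted p under 0.05. The 2 filled points are Hoxd4 in Del(i9-13):Hoxb13hd against wild type (-0.46) and against Hoxb13hd (-0.52).

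Hoxd4 carried the called change, and the sequences just before the starts of Hoxd4 and Hoxd3 are shown because both genes were low in the same libraries. The sequences are RefSeq's, from the plus strand of GRCm38.p6, and end before each gene's deposited locus. Capitals mark the letters TTTAT, a core that Cdx and posterior Hox proteins bind, or AGGTCA, the core that nuclear receptors such as retinoic acid receptors bind, on either strand (ATAAA and TGACCT are the same letters read on the opposite strand). Hoxd4 is shown at chr2:74721728-74721977 and Hoxd3 at chr2:74711743-74711926.
Hoxd4: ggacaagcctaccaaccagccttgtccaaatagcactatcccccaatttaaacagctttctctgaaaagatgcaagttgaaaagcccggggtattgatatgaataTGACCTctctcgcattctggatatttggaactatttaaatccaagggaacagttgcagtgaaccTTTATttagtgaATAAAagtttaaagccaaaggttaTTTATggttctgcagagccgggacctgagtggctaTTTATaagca
Hoxd3: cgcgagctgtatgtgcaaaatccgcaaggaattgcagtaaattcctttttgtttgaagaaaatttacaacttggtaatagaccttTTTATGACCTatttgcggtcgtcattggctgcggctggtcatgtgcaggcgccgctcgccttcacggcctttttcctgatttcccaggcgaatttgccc
A start was listed for 7 of the 10 genes, and the 250 bases before it were searched. TTTAT was found 4 times before Hoxd4, 1 time before Hoxd3 and 2 times before Hoxa7, that is in 3 of 7 windows, against 37.3% of 32851 windows of the same length before mouse genes. The Hoxa7 and Hoxc4 windows lie inside the deposited locus of the gene, so that the listed start is not the first base of that locus. The Hoxd3, Hoxa3 and Hoxa6 windows run partly into the locus, and for Hoxd3 only the bases before it are shown. The Hoxd4 window ends before the start at 74721978. The GENCODE M21 annotation also lists Hoxd4 transcripts from 74711929 and 74727074, and no Hoxd4 window was searched before those starts. AGGTCA was found 1 time each before Hoxd4, Hoxd3 and Hoxc4, also in 3 of 7 windows, against 14.0%. Before Hoxd3 the TTTAT and TGACCT matches share 1 base. The letters TGATNNAT, a joint site of Hox and Pbx proteins, were in 0 of the 7 windows, against 7.68%. How many matches a window holds was not compared with other genes. A match describes letters and was not measured as binding.

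Hoxd4 was called lower in Del(i9-13):Hoxb13hd embryos than in Hoxb13hd and wild-type embryos. It had 46.2, 39.5 and 40.7 CPM in Del(i9-13):Hoxb13hd, 59.8, 51.0 and 51.4 CPM in Del(i9-13), 59.3, 57.8 and 64.1 CPM in Hoxb13hd, and 56.1, 63.0 and 54.8 CPM in wild type. The 3 Del(i9-13):Hoxb13hd libraries were the 3 lowest of the 12, and no other group overlapped them. Groups did not overlap for 21.5% of all genes against wild type, 22.6% against Hoxb13hd and 20.3% against Del(i9-13).

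Against wild type Hoxd4 fell by 27.3% in Del(i9-13):Hoxb13hd, a log2 change of -0.46 ± 0.09 (SE) with a 95% interval of the ratio from 0.637 to 0.829 and an adjusted p of 0.0458 by edgeR. Against Hoxb13hd it fell by 30.2%, with a log2 change of -0.52 ± 0.09 and an adjusted p of 0.0191. Against Del(i9-13) the log2 change was -0.36 ± 0.09 with an adjusted p of 0.0782, which did not pass. This change was called with DESeq2 and with no filter on low counts, with a lowest adjusted p of 0.0165. It was called in 0 of the 12 fits that left out a library. The call against wild type was close to its threshold. It was lost in 11 of the 12 fits that left out a library, with adjusted p from 0.0506 to 0.23, and kept without Del(i9-13) replicate 1, at 0.018; without Del(i9-13) replicate 2 it was 0.0506 and without wild type replicate 3 it was 0.0983. It was also lost with replicate number as a block, with Xist as a covariate (0.0906) and with limma in its 3 forms (0.0803 to 0.169). The call against Hoxb13hd was kept in 8 of these 12 fits. It was lost without Del(i9-13):Hoxb13hd replicate 2 (adjusted p 0.099) or 3 (0.0904) and without Hoxb13hd replicate 2 (0.058) or 3 (0.0928), and it was 0.0214 without Del(i9-13) replicate 2. It was also lost with limma without a filter (0.103).

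With either allele alone Hoxd4 did not pass the threshold. The log2 change was -0.10 ± 0.09 in Del(i9-13) against wild type, with an adjusted p of 0.784, and 0.06 ± 0.09 in Hoxb13hd against wild type, with an adjusted p of 0.762. The interaction, which asks whether the deletion acts differently in Hoxb13hd embryos than in wild type, was -0.42 ± 0.12 for Hoxd4, with an unadjusted p of 0.00514 and an adjusted p of 0.201. The call in the double homozygotes is therefore not shown to differ from the sum of both alleles. At E9.5 Hoxd4 had 79.3, 69.5 and 71.96 CPM in Del(i9-13) and 72.9, 75.2 and 77.3 CPM in wild type. Its log2 change there was -0.03 ± 0.06, with an adjusted p of 0.88.

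Hoxd3, which shapes the first neck vertebrae, had group means in the same order as those of Hoxd4. It had 22.6, 19.3 and 20.2 CPM in Del(i9-13):Hoxb13hd, 27.2, 23.0 and 26.3 CPM in Del(i9-13), 33.0, 25.4 and 31.1 CPM in Hoxb13hd, and 22.4, 32.5 and 33.6 CPM in wild type. The Del(i9-13):Hoxb13hd libraries lay below those of Hoxb13hd and Del(i9-13), while wild type replicate 1 fell among them. Groups did not overlap for 22.6% of all genes against Hoxb13hd and 20.3% against Del(i9-13). The log2 change was -0.51 ± 0.15 against wild type with an adjusted p of 0.177, and -0.53 ± 0.15 against Hoxb13hd with an adjusted p of 0.102, so that edgeR called neither. DESeq2 called the change against Hoxb13hd, at 0.0283. At E9.5 Hoxd3 had 56.2, 46.9 and 52.6 CPM in Del(i9-13) and 51.1, 50.8 and 50.4 CPM in wild type, groups that overlapped.

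**Figure D4:**
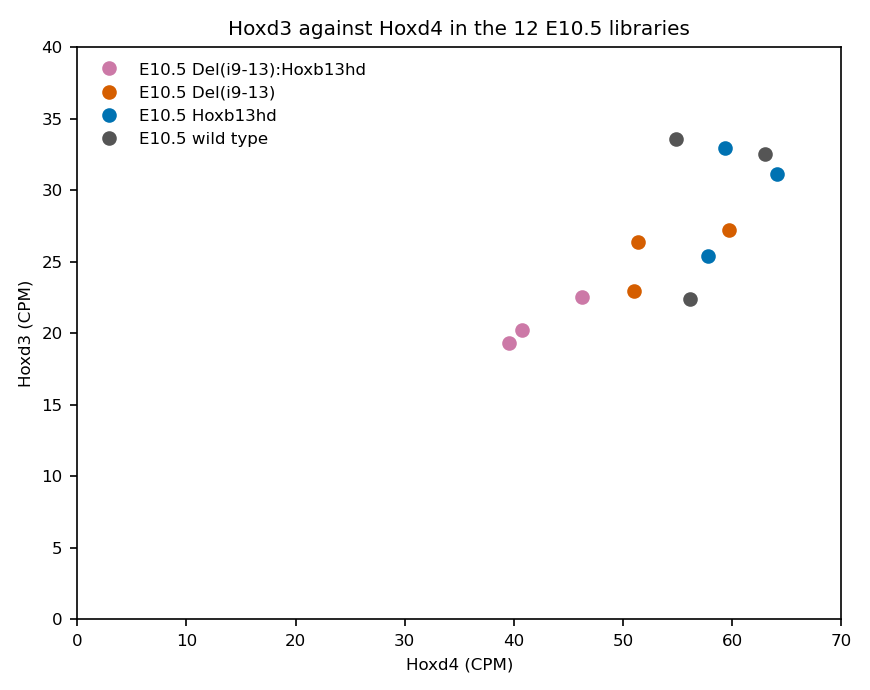
Level of Hoxd3 (y axis) against Hoxd4 (x axis) in the 12 E10.5 libraries, both in CPM. The 3 Del(i9-13):Hoxb13hd libraries lie at the lower left, with 39.5 to 46.2 CPM of Hoxd4 and 19.3 to 22.6 CPM of Hoxd3.

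Hoxd3 and Hoxd4 together had 58.8 to 68.8 CPM in Del(i9-13):Hoxb13hd, 73.9 to 86.9 CPM in Del(i9-13), 83.2 to 95.3 CPM in Hoxb13hd and 78.5 to 95.6 CPM in wild type. The ratio of Hoxd3 to Hoxd4 reads was 0.488 to 0.496 in Del(i9-13):Hoxb13hd, 0.450 to 0.513 in Del(i9-13), 0.439 to 0.556 in Hoxb13hd and 0.399 to 0.612 in wild type, so that the range of every other group took in that of the double homozygotes. Both genes lie in a shared stretch of chromosome 2. Transcripts contained in their deposited loci share no exon bases in the GENCODE M21 annotation. GENCODE also lists a longer Hoxd4 transcript that starts before the deposited Hoxd4 locus and runs into it. That transcript shares 388 exon bases with Hoxd3.

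Markers of other cells also stood at different levels in these groups. The 8 spinal neuron markers summed to 333 to 356 CPM in Del(i9-13):Hoxb13hd, 290 to 367 CPM in Del(i9-13), 141 to 226 CPM in Hoxb13hd and 246 to 374 CPM in wild type. The 9 tail bud markers summed to 80.0 to 90.5 CPM in Del(i9-13):Hoxb13hd, 74.1 to 76.7 CPM in Del(i9-13), 112 to 159 CPM in Hoxb13hd and 67.9 to 104 CPM in wild type. The 11 head and brain markers summed to 42.0 to 45.2 CPM in Del(i9-13):Hoxb13hd, 39.8 to 43.9 CPM in Del(i9-13), 27.7 to 35.8 CPM in Hoxb13hd and 26.8 to 35.4 CPM in wild type, and the forebrain genes Six3 and Six6 had 0 reads in every E10.5 library. Of the 11, only 4 averaged at least 1 CPM in each E10.5 group. Whether genes of this list mark head cells in headless embryos was not tested. Of the 4 that passed the filter on low counts, edgeR called Lhx2 higher in Del(i9-13):Hoxb13hd than in wild type (log2 change 0.53, adjusted p 0.0443) and than in Hoxb13hd (0.51, adjusted p 0.0359). Of the 8 neuron markers it called Stmn2 higher in Del(i9-13):Hoxb13hd than in Hoxb13hd (1.11, adjusted p 0.0458). Over all genes 0.401% passed in the double homozygotes against wild type and 0.959% against Hoxb13hd. The alternative fits were not examined for Lhx2 and Stmn2. The heart markers summed to 79.1 to 139 CPM in Del(i9-13):Hoxb13hd, 67.8 to 241 CPM in Del(i9-13), 31.5 to 273 CPM in Hoxb13hd and 73.9 to 864 CPM in wild type. The liver and visceral endoderm markers summed to 241 to 315 CPM in Del(i9-13):Hoxb13hd, 279 to 1455 CPM in Del(i9-13), 25.4 to 103 CPM in Hoxb13hd and 165 to 504 CPM in wild type. In Del(i9-13):Hoxb13hd against wild type the median log2 change was -1.79 for the heart list, with 0 of 6 positive, and -1.02 for the liver list, with 2 of 7 positive. The part of these differences in the Hoxd4 result was not tested.

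In HoxA the largest differences from wild type at E10.5 were those of Hoxa7, which acts in the vertebrae of the trunk. It had 37.3, 41.2 and 39.5 CPM in Del(i9-13):Hoxb13hd, 42.1, 50.6 and 39.0 CPM in Del(i9-13), 33.8, 42.8 and 33.6 CPM in Hoxb13hd, and 33.0, 30.6 and 27.6 CPM in wild type. The 3 wild-type libraries were the lowest of the 12, and every mutant group lay above them without overlap. Groups did not overlap for 13.0% of all genes in Del(i9-13) against wild type, 21.5% in Del(i9-13):Hoxb13hd and 25.4% in Hoxb13hd. These 3 comparisons share the wild-type libraries. In the same comparisons 0 of the 6 heart markers had a positive log2 change, with a median of -1.79 in Del(i9-13):Hoxb13hd, -0.95 in Del(i9-13) and -1.61 in Hoxb13hd. The lowest Hoxa7 value came from wild type replicate 3, the library with the high heart sum. The part of the heart markers in the Hoxa7 differences was not tested.

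No Hoxa7 difference passed edgeR's adjusted threshold. The log2 change against wild type was 0.37 ± 0.12 in Del(i9-13):Hoxb13hd (adjusted p 0.217), 0.53 ± 0.12 in Del(i9-13) (adjusted p 0.0827) and 0.27 ± 0.12 in Hoxb13hd (adjusted p 0.215). The Del(i9-13) difference, 1.44-fold, was past the threshold by DESeq2 (0.00511), with no filter on low counts (0.0112) and with limma on log2 FPKM at a pseudocount of 0.1 (0.0497) or 1 (0.0499). It also passed without Del(i9-13) replicate 1, at 0.56 with an adjusted p of 0.0481, and without Hoxb13hd replicate 2 (0.0473). Without Del(i9-13) replicate 2, the library with few Hoxc10 reads, it was 0.42 with an adjusted p of 0.286. Without wild type replicate 3 the log2 change was 0.32 in Del(i9-13):Hoxb13hd (adjusted p 0.335), 0.47 in Del(i9-13) (0.295) and 0.21 in Hoxb13hd (0.437). At E9.5 Hoxa7 had 48.3, 49.5 and 42.1 CPM in Del(i9-13) and 44.8, 48.9 and 47.3 CPM in wild type, which overlapped, with a log2 change of -0.01 ± 0.07. The difference between the deletion's effects at E10.5 and E9.5 was 0.56 ± 0.14 for Hoxa7, with an unadjusted p of 0.00172 and an adjusted p of 0.31.

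The other HoxA genes showed no difference past the threshold in any comparison, by edgeR. Hoxa3, needed for the thymus and parathyroid, had 9.82, 7.57 and 10.46 CPM in Del(i9-13):Hoxb13hd, 10.6, 8.06 and 9.03 CPM in Del(i9-13), 12.5, 9.14 and 9.99 CPM in Hoxb13hd, and 9.16, 8.52 and 10.9 CPM in wild type. All 4 groups overlapped. Hoxa5, which acts in lung and in the neck-to-thorax transition, lay between 17.2 and 26.5 CPM over the 12 libraries, with log2 changes against wild type of -0.07 ± 0.13 in Del(i9-13):Hoxb13hd, -0.07 ± 0.13 in Del(i9-13) and -0.13 ± 0.14 in Hoxb13hd. Hoxa4, a neck gene, was the least precise of the 10 at E10.5, with a standard error of 0.28 on the log2 scale. Within Del(i9-13) it had 6.21, 14.1 and 9.24 CPM, so that both ends came from the libraries that stood apart, replicates 1 and 2. Its log2 change in Del(i9-13) against wild type was -0.05 with all libraries, 0.19 without replicate 1 and -0.41 without replicate 2, with adjusted p of 0.981, 0.726 and 0.806.

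Hoxa6, which acts in the trunk vertebrae, had 5.25 to 5.97 CPM in Del(i9-13):Hoxb13hd, 4.84 to 6.77 CPM in Del(i9-13), 4.69 to 6.29 CPM in Hoxb13hd and 4.19 to 5.89 CPM in wild type. At E9.5 it had 6.99, 5.71 and 5.64 CPM in Del(i9-13) and 8.07, 8.70 and 6.89 CPM in wild type. The lowest wild-type library fell within the Del(i9-13) range. The log2 change was -0.37 ± 0.14, with an unadjusted p of 0.0311 and an adjusted p of 0.388, and it was -0.31 with an adjusted p of 0.428 without Del(i9-13) replicate 3. For Hoxa3, Hoxa4 and Hoxa5 the E9.5 log2 changes were -0.05 ± 0.08, 0.01 ± 0.14 and 0.02 ± 0.07.

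In HoxC the genes differed from each other in which groups were high. Hoxc6, which marks forelimb-level motor neurons, had 31.6, 27.0 and 31.7 CPM in Del(i9-13):Hoxb13hd, 28.6, 18.2 and 17.2 CPM in Del(i9-13), 24.1, 29.5 and 26.0 CPM in Hoxb13hd, and 21.3, 20.2 and 19.3 CPM in wild type. Both groups with Hoxb13hd lay above wild type without overlap, while Del(i9-13) was split, with replicate 1 high and the others below wild type. Groups did not overlap for 21.5% of all genes in Del(i9-13):Hoxb13hd against wild type and for 25.4% in Hoxb13hd against wild type. The log2 change against wild type was 0.57 ± 0.16 in Del(i9-13):Hoxb13hd (unadjusted p 0.00362, adjusted p 0.174) and 0.39 ± 0.16 in Hoxb13hd (unadjusted p 0.0318, adjusted p 0.197). EdgeR called neither in the main fit, while DESeq2 called the first, at 0.0496. The first was also called by edgeR fitted to the groups compared alone. Without wild type replicate 3 the log2 changes were 0.55 (adjusted p 0.277) and 0.36 (0.366).

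In edgeR's fit of all E10.5 groups the Hoxc6 calls depended on Del(i9-13) replicate 1, the library with the high liver and visceral endoderm sum. Without it, Hoxc6 was called higher against wild type in Del(i9-13):Hoxb13hd (0.58, adjusted p 0.0121) and in Hoxb13hd (0.39, adjusted p 0.0279). That library is in neither group of these comparisons, and with it the changes were 0.57 and 0.39. Its removal acted on the fit shared by the E10.5 libraries, while the sizes hardly moved. Without that library Hoxc6 was also called higher in Del(i9-13):Hoxb13hd than in Del(i9-13), at 0.78 with an adjusted p of 0.00133. With it the change was 0.50 ± 0.16 with an adjusted p of 0.151. In Del(i9-13) against wild type it was 0.07 ± 0.16 with all libraries and -0.20 without replicate 1, with adjusted p of 0.936 and 0.339. At E9.5 Hoxc6 had 42.5, 40.9 and 39.1 CPM in Del(i9-13) and 46.2, 53.3 and 45.9 CPM in wild type. These groups did not overlap, as for 18.9% of all genes, and the log2 change of -0.25 ± 0.07 had an unadjusted p of 0.00879 and an adjusted p of 0.259. In the same libraries the tail bud markers summed to 230 to 239 CPM in Del(i9-13) and 123 to 196 CPM in wild type, and the spinal neuron markers to 50.4 to 71.9 CPM in Del(i9-13) and 89.4 to 108 CPM in wild type. The liver and visceral endoderm markers summed to 93.8 to 956 CPM in Del(i9-13) and 22.1 to 96.5 CPM in wild type (median log2 change 3.45, 6 of 7 positive), and the heart markers to 30.2 to 44.5 CPM in Del(i9-13) and 43.2 to 106 CPM in wild type (-0.86, 0 of 6 positive). Without Del(i9-13) replicate 3 the Hoxc6 change was -0.22, with an adjusted p of 0.315. The part of these markers in the Hoxc6 value was not tested.

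Hoxc5, which acts in motor neurons of the neck and forelimb level, had 39.2, 39.1 and 35.4 CPM in Del(i9-13):Hoxb13hd, 32.3, 58.4 and 40.1 CPM in Del(i9-13), 33.1, 33.8 and 31.1 CPM in Hoxb13hd, and 35.9, 31.6 and 37.9 CPM in wild type. Its highest value came from Del(i9-13) replicate 2. The log2 change in Del(i9-13) against wild type was 0.31 ± 0.16 with an edgeR adjusted p of 0.616. It was 0.04 without that library and 0.48 without Del(i9-13) replicate 1. Over the 12 fits that left out a library the adjusted p ran from 0.0823 to 0.978. The Del(i9-13):Hoxb13hd libraries lay above those of Hoxb13hd without overlap, as for 22.6% of all genes in either direction, with a log2 change of 0.21 ± 0.16 and an adjusted p of 0.594.

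Hoxc4 is the HoxC paralog of Hoxd4. It had 29.3, 27.0 and 25.8 CPM in Del(i9-13):Hoxb13hd, 25.2, 28.5 and 25.8 CPM in Del(i9-13), 31.1, 31.6 and 34.3 CPM in Hoxb13hd, and 27.0, 25.7 and 30.6 CPM in wild type. Hoxb13hd was highest and overlapped neither wild type, as for 25.4% of all genes, nor the double homozygotes, as for 22.6%. Its log2 change against wild type was 0.22 ± 0.09 (unadjusted p 0.0293, adjusted p 0.191), and that of Del(i9-13):Hoxb13hd against Hoxb13hd was -0.24 ± 0.09 (unadjusted p 0.0185, adjusted p 0.218). In Del(i9-13):Hoxb13hd against wild type the log2 change of Hoxc4 was -0.02 ± 0.09, against -0.46 ± 0.09 for Hoxd4. A test between the paralogs was not made. At E9.5 Hoxc4 and Hoxc5 had log2 changes of 0.08 ± 0.06 each in Del(i9-13).

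Noncoding genes overlap several members. By locus 8 of them do: Hoxaas2, Hoxaas3, 5730596B20Rik, Gm15050 and Gm29430 in HoxA, Hoxd3os1 and Mir10b in HoxD, and Mir615 in HoxC. Hoxaas3 shares 579 exon bases with Hoxa7, on the opposite strand, which is 20.7% of the exon bases of Hoxa7. Exons on the opposite strand also overlap those of Hoxa4 (Gm29430, 16.0% of its exon bases) and Hoxd3 (Hoxd3os1, 8.85%). Hoxa3 shares exon bases with Hoxaas2 (12.2%), Gm29430 (10.6%), 5730596B20Rik (7.11%) and Hoxaas3 (1.85%). The sources used here do not say how the counting used strand, so that reads of a gene and its antisense partner cannot be told apart in these stretches. Of the 8, 6 passed the filter on low counts, and Mir10b and Mir615 had at most 0.326 and 0.156 CPM.

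Of these 6 genes, 2 were called lower in Del(i9-13):Hoxb13hd than in Hoxb13hd, where 0.959% of all genes were called. Hoxaas3 had 6.72, 6.83 and 5.08 CPM in Del(i9-13):Hoxb13hd and 10.3, 16.1 and 12.4 CPM in Hoxb13hd, against 4.73, 7.29 and 7.39 CPM in Del(i9-13) and 7.16, 8.98 and 6.53 CPM in wild type. Hoxb13hd was the high group. 5730596B20Rik, inside the Hoxa3 locus, had 3.27, 2.46 and 3.78 CPM in Del(i9-13):Hoxb13hd and 6.57, 7.76 and 5.601 CPM in Hoxb13hd, against 4.65, 4.44 and 4.31 CPM in Del(i9-13) and 4.26, 6.31 and 7.28 CPM in wild type. Here the double homozygotes were the low group. The log2 changes were -1.06 ± 0.21 and -1.07 ± 0.21, each with an adjusted p of 0.0359, and each call was kept in 6 of the 12 fits that left out a library. Both calls were also lost with Xist as a covariate and with limma in its 3 forms, where the adjusted p for Hoxaas3 was 0.0556 and 0.0696 to 0.16. Hoxa7 differed by 0.10 ± 0.12 and Hoxa3 by -0.19 ± 0.16 in the same comparison.

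**Figure D5:**
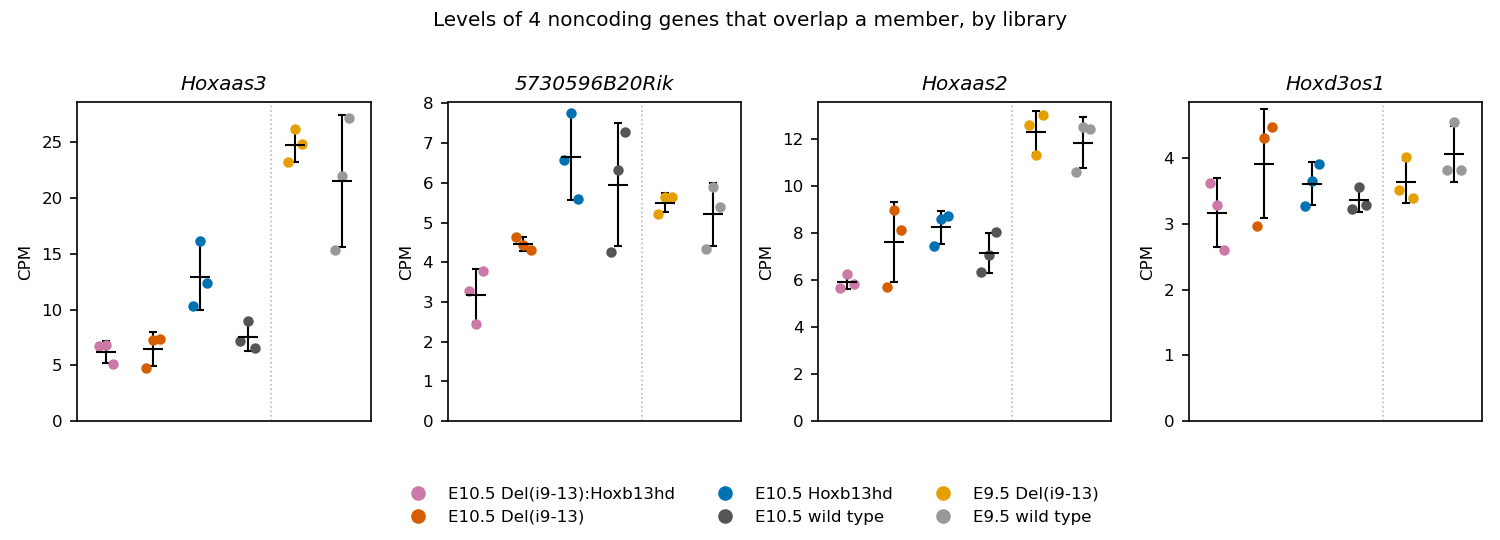
Level (CPM, y axis) of 4 noncoding genes that overlap members of the set, in each of the 18 libraries, with the group mean and SD. Groups stand from left to right as Del(i9-13):Hoxb13hd, Del(i9-13), Hoxb13hd and wild type at E10.5, then Del(i9-13) and wild type at E9.5. Hoxaas3 is high in Hoxb13hd among the E10.5 groups, at 10.3 to 16.1 CPM.

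Across the 10 genes the interaction of deletion and Hoxb13hd gave 0 edgeR calls, where 0.523% of all genes passed. The unadjusted p was under 0.05 for 11.7% of all genes, and among the 10 for Hoxd4 and for Hoxa7, whose interaction was -0.43 ± 0.17 with an adjusted p of 0.329, and DESeq2 and limma also gave 0 calls. The difference between the deletion's effects at E10.5 and E9.5 gave 0 edgeR calls as well, where 0.0453% of 17670 genes passed. The unadjusted p was under 0.05 for 6.86% of all genes, and among the 10 for Hoxa7 and for Hoxa6 (0.54 ± 0.25, adjusted p 0.717), with 0 calls by DESeq2 and by limma. In this last comparison stage and library type cannot be told apart.

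The HoxB genes of the same groups, Hoxb3 to Hoxb7, lie in the mutated cluster. EdgeR called 0 of these 5 in each of the 8 comparisons, with an unadjusted p under 0.05 for 0 to 2 of them. DESeq2 called 1, Hoxb7, in the difference between stages and 0 in the other 7, and limma called 0 in all 8. In Del(i9-13):Hoxb13hd against wild type Hoxb4, the HoxB paralog of Hoxd4, had a log2 change of -0.23 ± 0.16, and Hoxb7, the paralog of Hoxa7, had 0.33 ± 0.13, with adjusted p of 0.6 and 0.317.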

How the data were processed

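The authors deposited whole-number counts of reads per gene and FPKM values per gene, as whole-series tables of 18 libraries. Per the submitters' processing notes, adapters were removed with cutadapt 1.18, reads were aligned to mm10 with STAR 2.7.10a, and the deposited FPKM came from Cufflinks 2.2.1. The sources used here do not give the counting mode, its use of strand or the annotation. All columns matched a library's labels.

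Counts were tested in R 4.3.3 with edgeR 4.0.16 (TMM scaling, filterByExpr with a minimum count of 10 and total of 15, robust quasi-likelihood fit), on the 6 E9.5 and the 12 E10.5 libraries separately and, for the difference between stages, on 4 groups. P-values were adjusted over all genes tested. Library totals of 19333138 to 35934843 set the precision given by the standard errors. CPM use TMM-scaled totals. FPKM, in which levels of different genes are compared, were also tested with limma 3.58.1 on log2(FPKM + 0.1 or 1), with 1 FPKM in at least 3 libraries or no filter, and DESeq2 1.42.0 was run on the counts. Scripts were tested on simulated data. Starts in the FPKM table are given 1-based. The member genes are always described; the other genes named are those whose loci overlap a member, Hox genes and Hox regulators that passed, and the 5 genes outside the Hox clusters most like the members' mean. Marker genes come from fixed lists, of which those that passed are named. The members and the lists were chosen with earlier results of these data known.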

Additional observations from a re-analysis of the deposited data

How the results depend on the processing

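The call of Hoxd4 and the near call of Hoxa7 depended on the fit. In Del(i9-13) against wild type at E10.5 the count of the 10 genes called was 0; it was 1 with no filter on low counts, with DESeq2, with the replicate block and with limma at a pseudocount of 0.1 or 1, and 0 to 1 when a library was left out. For the double homozygotes against wild type the count was 1; it was 2 with DESeq2 and with the groups compared alone, 0 with Xist as a covariate, with the replicate block and with limma in its 3 forms, and 0 to 2 when a library was left out. In Hoxb13hd against wild type it was 0, and 0 to 1 when a library was left out. Against Hoxb13hd the count in the double homozygotes was 1; it was 2 with DESeq2, 0 with limma without a filter and 0 to 1 when a library was left out. Against Del(i9-13) it was 0 in the main fit, 1 (Hoxd4) with no filter and with DESeq2, and 0 to 1 when a library was left out. At E9.5, for the interaction and for the difference between stages it was 0 in the alternatives run. Why the counts changed between fits was not tested. Of 1590 alternative values of single genes, 0 reversed a called change. 101 changed sign, with a size of at most 0.25 in the main fit. RLE scaling moved the median of all genes by at most 0.0377. The labels do not say whether replicate numbers pair the samples, and the main fit used no block. With the replicate block the adjusted p was 0.0578 for Hoxd4 in the double homozygotes against wild type and 0.0411 for Hoxa7 in Del(i9-13) against wild type. Deviations of same-numbered libraries correlated at -0.0537 to 0.129 at E9.5 (3 pairs) and at -0.242 to 0.421 at E10.5 (18 pairs). Of these 18 pairs, 7 were above 0.1. Differently numbered E10.5 libraries of different groups correlated at -0.509 to 0.449. These values do not decide whether the numbers mark pairs.

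Counts over all genes moved more. At E9.5 58 genes were called, with 20 to 537 over the alternatives. At E10.5 the counts were 69 (14 to 326) in Del(i9-13):Hoxb13hd, 84 (40 to 285) in Del(i9-13) and 517 (51 to 1240) in Hoxb13hd, each against wild type. In Del(i9-13):Hoxb13hd they were 165 (36 to 658) against Hoxb13hd and 156 (58 to 1453) against Del(i9-13). The interaction had 90 (40 to 297) and the difference between stages 8 (1 to 88). Of the lowest counts, 14 and 40 (Del(i9-13) against wild type) came without wild type replicate 2, 51 and 36 without Hoxb13hd replicate 2, 58 without Del(i9-13):Hoxb13hd replicate 3 and 40 (interaction) without its replicate 1. The counts of 1453 and 285 came without Del(i9-13) replicate 1, 326, 1240, 658, 297 and 88 from DESeq2, 537 with no filter, and 20 and 1 from limma without a filter.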

Other observations

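Among Hox genes outside the 10, Hoxd9 and Hoxb1 were called higher in Hoxb13hd than in wild type at E10.5. In that comparison 3.01% of all genes passed. Hoxd9, a HoxD gene of the posterior trunk, averaged 22.2 ± 2.04 CPM in Hoxb13hd and 14.8 ± 1.24 CPM in wild type (SD, n = 3 each, log2 change 0.59, edgeR adjusted p 0.0118); the adjusted p was 0.0645 without Hoxb13hd replicate 2 and 0.0507 without replicate 3. Hoxb1, a hindbrain gene, had 10.96, 8.14 and 10.94 CPM in Hoxb13hd and 4.44, 5.51 and 5.81 CPM in wild type (0.93, edgeR adjusted p 0.00977). Other fits were not examined for Hoxb1. The libraries of these groups did not overlap for either gene, as for 25.4% of all genes. The middle HoxD genes Hoxd3 and Hoxd4 had log2 changes of 0.01 and 0.06 in the same comparison.

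Of 38 Hox regulators and cofactors, 37 were tested. In Hoxb13hd against wild type 2 were called higher and 1 lower, where 3.01% of all genes passed. Cdx1, which activates middle Hox genes, had 5.36, 8.05 and 6.29 CPM in Hoxb13hd and 2.22, 4.28 and 2.32 CPM in wild type (1.16, adjusted p 0.0345, kept in 6 of 12 fits without a library). Lin28a, an RNA-binding protein of early embryonic cells, had 278, 334 and 304 CPM in Hoxb13hd and 162, 244 and 168 CPM in wild type (0.68, adjusted p 0.0198, kept in 8 of 12). Pknox1, a Hox cofactor, had 43.5, 44.5 and 41.6 CPM in Hoxb13hd and 53.5, 51.6 and 51.9 CPM in wild type (-0.27, adjusted p 0.0299, kept in 4 of 12). Lin28a was also called lower in Del(i9-13):Hoxb13hd, with 181, 180 and 170 CPM, than in Hoxb13hd (-0.79, adjusted p 0.0171, kept in 7 of 12). In that comparison 0.959% of all genes passed. Several of these calls were lost in other fits. With the groups compared alone, in Hoxb13hd against wild type, the adjusted p was 0.0642 for Cdx1, 0.0758 for Lin28a and 0.0758 for Pknox1. Without wild type replicate 3, the library with the high heart sum, it was 0.113 for Cdx1, 0.0769 for Lin28a and 0.0855 for Pknox1. With Xist as a covariate it was 0.0573 for Cdx1 and 0.054 for Pknox1, with no filter it was 0.0858 for Pknox1, and with limma without a filter it was 0.0975 for Cdx1, 0.0924 for Lin28a and 0.1 for Pknox1. The Lin28a call against Hoxb13hd was lost with limma without a filter (0.075). In Hoxb13hd against wild type edgeR's main fit called 2 of the 9 tail bud markers higher. They were Fgf8 (0.79, adjusted p 0.0375) and Wnt3a (0.95, 0.049). Of the 8 spinal neuron markers the fit called 2 lower, Dcx (-1.43, 0.0393) and Elavl4 (-0.62, 0.04). Other fits were not examined for these markers. The part of these markers in the differences was not tested.

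Across the 12 E10.5 libraries the genes outside the Hox clusters whose log2 CPM followed the mean of the 10 genes most closely, of 14328 compared, were Gm37352, Slc35d2, Pisd-ps2, Gm49266 and Ropn1l, with Pearson correlations of 0.82, 0.82, 0.82, 0.80 and 0.80. Across the 6 E9.5 libraries the same genes had 0.15, -0.59, -0.37, 0.33 and 0.31. These are descriptions of libraries that share their groups.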
